A study of Mus musculus with 2 samples.

Results

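The 43 genes described here encode proteins of S, G2 and M phase, 20 of them of S phase and 23 of G2 and M phase. They were taken by symbol from a fixed list, and all 43 were found among the 28692 genes of the count matrices. The data are single-cell transcriptomes of sorted Epcam+ lung cells of adult C57BL/6 mice, made with the 10x Genomics Chromium 3' kit. There were 1 Control library and 1 library of the NAPH injury, so no difference between the conditions could be tested, and intervals below are 95% and cover counting error only. The labels give no dose, time after injury, sex or number of animals, nor whether cells of several animals were pooled. Control gave 3298 cells and 41699755 unique molecular identifiers (UMIs, each standing for 1 captured transcript) and NAPH gave 3681 cells and 38497783 UMIs after 4 barcodes were left out. Median UMIs per barcode were 8303.5 and 9417, and 14 barcodes occurred in both libraries.

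In S phase a cell copies its DNA once. The MCM helicase is loaded at origins before S phase, and ribonucleotide reductase and thymidylate synthase supply the nucleotides. In G2 and M phase Cdk1 with B-type cyclins drives condensation and spindle assembly, and the anaphase-promoting complex then degrades the cyclins. Genes of S phase are known targets of E2F factors, while genes of G2 and M phase are known targets of the MuvB complex at the CHR element and of NF-Y at CCAAT boxes. In the adult lung, epithelial cells divide rarely at rest; AT2 cells, which make surfactant, and secretory airway cells are known to divide after injury, and ciliated cells are regarded as having left the cycle.

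Promoters of both phases are shown because the values of the 2 groups of genes parted in AT2 cells, as described further on. RefSeq (GRCm38.p6) gave a window of 250 bases before to 50 bases after the start for 38 of the 43 genes (2 of them with 2 windows). Mcm4, Gins2, Tpx2, Smc4 and Aurkb had no entry. The CHR letters TTTGAA, searched on both strands as all motifs here, were in 15 of 20 G2 and M phase genes (75%), in 4 of 18 S phase genes (22.2%) and in 20.2% of 27025 genes with a window of the same length. The E2F letters TTCCCGC or TTGGCGC were in 9 of 18 S phase genes (50%), in 2 of 20 G2 and M phase genes (10%) and in 7.79% of all genes. CCAAT was in 18 of 20 G2 and M phase genes (90%), in 13 of 18 S phase genes (72.2%) and in 41.1% of all genes. CHR and CCAAT stood together in 15 of 20 G2 and M phase genes (75%), in 3 of 18 S phase genes (16.7%) and in 8.97% of all genes. A match is a run of letters and was not shown to be a bound site.

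The 250 bases before the start are printed for 3 genes of each phase with the most matches, where ties went to the gene listed first. Letters run 5′ to 3′ on the gene's strand, and capitals mark CHR (TTTGAA, or TTCAAA where read on the other strand), E2F (TTCCCGC or TTGGCGC, or GCGGGAA and GCGCCAA) and CCAAT (or ATTGG). A match that overlaps another forms 1 longer run of capitals. The first 3 are of S phase: Mcm5 (chr8:75109259-75109508, plus strand), Mcm6 (chr1:128359706-128359955, minus strand) and Uhrf1 (chr17:56303087-56303336, plus strand). The last 3 are of G2 and M phase: Top2a (chr11:99024190-99024439, minus strand), Ube2c (chr2:164769679-164769928, plus strand) and Hmgb2 (chr8:57511593-57511842, plus strand).
Mcm5: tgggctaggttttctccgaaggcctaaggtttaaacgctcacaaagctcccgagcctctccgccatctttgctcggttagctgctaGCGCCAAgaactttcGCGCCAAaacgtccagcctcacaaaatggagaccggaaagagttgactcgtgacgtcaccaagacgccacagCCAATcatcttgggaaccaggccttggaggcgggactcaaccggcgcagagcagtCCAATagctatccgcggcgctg
Mcm6: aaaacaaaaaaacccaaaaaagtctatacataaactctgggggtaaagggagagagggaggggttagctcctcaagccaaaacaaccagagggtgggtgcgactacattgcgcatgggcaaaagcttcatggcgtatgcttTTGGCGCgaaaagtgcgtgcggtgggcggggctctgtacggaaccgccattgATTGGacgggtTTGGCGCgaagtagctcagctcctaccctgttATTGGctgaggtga
Uhrf1: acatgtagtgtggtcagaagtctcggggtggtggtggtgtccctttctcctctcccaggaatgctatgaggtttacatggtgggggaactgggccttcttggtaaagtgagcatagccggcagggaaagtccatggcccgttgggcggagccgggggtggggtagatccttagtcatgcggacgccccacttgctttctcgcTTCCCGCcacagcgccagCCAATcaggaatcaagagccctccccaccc
Top2a: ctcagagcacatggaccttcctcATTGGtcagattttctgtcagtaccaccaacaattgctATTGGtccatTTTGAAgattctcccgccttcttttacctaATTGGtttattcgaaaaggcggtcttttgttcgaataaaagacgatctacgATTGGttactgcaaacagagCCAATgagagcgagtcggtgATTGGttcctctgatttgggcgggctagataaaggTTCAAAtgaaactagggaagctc
Ube2c: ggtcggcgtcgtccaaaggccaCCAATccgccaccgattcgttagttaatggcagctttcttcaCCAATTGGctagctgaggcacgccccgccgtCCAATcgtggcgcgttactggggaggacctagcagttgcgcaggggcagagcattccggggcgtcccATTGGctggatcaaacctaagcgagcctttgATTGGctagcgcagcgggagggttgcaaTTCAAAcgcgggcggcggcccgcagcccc
Hmgb2: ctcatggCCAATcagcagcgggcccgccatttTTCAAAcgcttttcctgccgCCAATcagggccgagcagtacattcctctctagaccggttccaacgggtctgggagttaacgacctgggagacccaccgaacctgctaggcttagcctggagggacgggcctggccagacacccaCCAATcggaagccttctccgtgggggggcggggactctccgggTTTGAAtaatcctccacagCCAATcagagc
In these stretches Mcm5 and Mcm6 held 2 E2F matches each and no CHR match, Top2a held 2 CHR and 6 CCAAT matches, and Ube2c held 1 CHR and 6 CCAAT matches, 2 of which overlap in 1 run of capitals.

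Most cells held few UMIs of the 43 genes, and a small number held most of them. Summed over the 43 genes there were 18526 UMIs in Control (0.0444% of all UMIs) and 25325 in NAPH (0.0658%). No UMI of any of the 43 genes was found in 387 Control cells (11.7%) and 411 NAPH cells (11.2%), and 1 or 2 UMIs were found in 1526 (46.3%) and 1512 cells (41.1%). At the other end, 115 Control cells (3.49%) and 149 NAPH cells (4.05%) held at least 20, and these cells carried 57.1% and 59.9% of the summed UMIs. The highest single cells held 242 and 337. Between 10 and 19 UMIs were held by 43 Control cells, fewer than the 50 with at least 100, and by 95 NAPH cells, more than the 65 with at least 100.

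**Figure D1:**
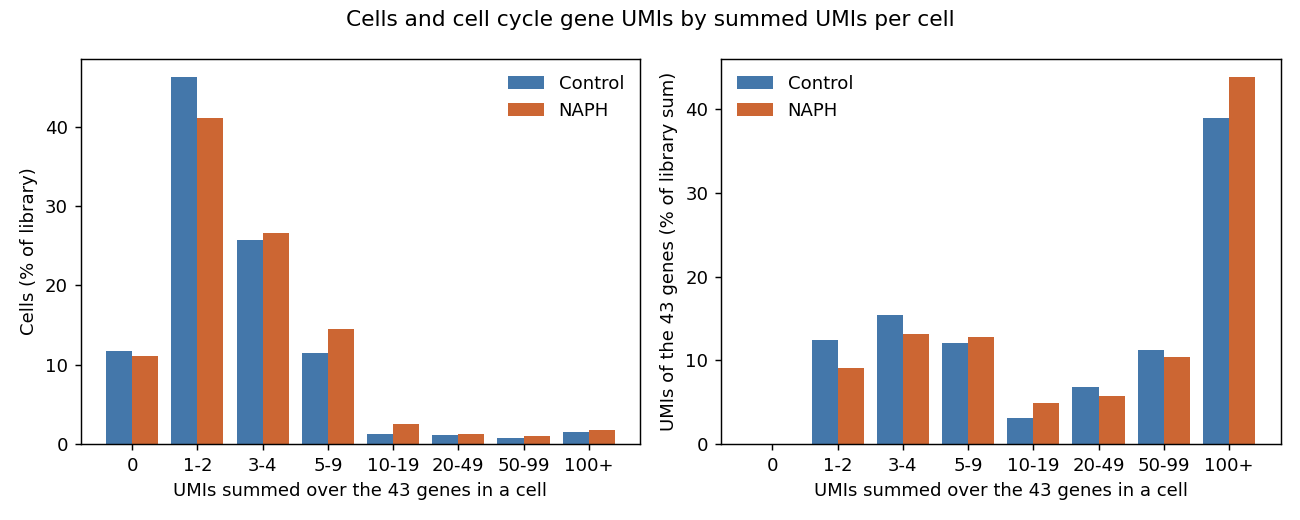
Cells of each library (left, percent of cells) and UMIs of the 43 genes (right, percent of the library's sum) by the number of UMIs summed over the 43 genes in a cell. Cells past 20 UMIs are rare in either library (3.49% in Control, 4.05% in NAPH) but hold 57.1% and 59.9% of the UMIs.

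The genes differed in how far they were limited to these cells. Of the 43 genes, 17 had over 75% of their UMIs in cells with at least 20 in both libraries, 14 of the 23 of G2 and M phase and 3 of the 20 of S phase. Since each gene adds to the sum that chose the cells, these shares are a description. Nusap1, a spindle microtubule protein, had 98.5% (Control) and 95.9% (NAPH) of its UMIs there. Top2a, the topoisomerase that untangles chromosomes, had 94.7% and 90.4%, and Rrm2, the S phase subunit of ribonucleotide reductase, had 94.7% and 91.0%. At the other end 12 genes had under 50% in both libraries, 10 of them of S phase, together with Smc4, a condensin subunit, and Bub1, a checkpoint kinase. Nasp, a histone chaperone, had 19.8% and 21.0%, Slbp, which binds histone mRNA, 26.6% and 21.7%, and Pcna, the sliding clamp of replication, 30.7% and 26.1%. Hmgb2, a chromatin protein, had 47.6% and 55.1%. It was the gene with the most UMIs (10034 over both libraries, 25.3% and 21.1% of the summed UMIs), and Cdc6, which loads the MCM helicase, had the fewest (76). UMIs of a 3' kit do not scale with transcript length, so these levels can be set side by side.

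**Figure D2:**
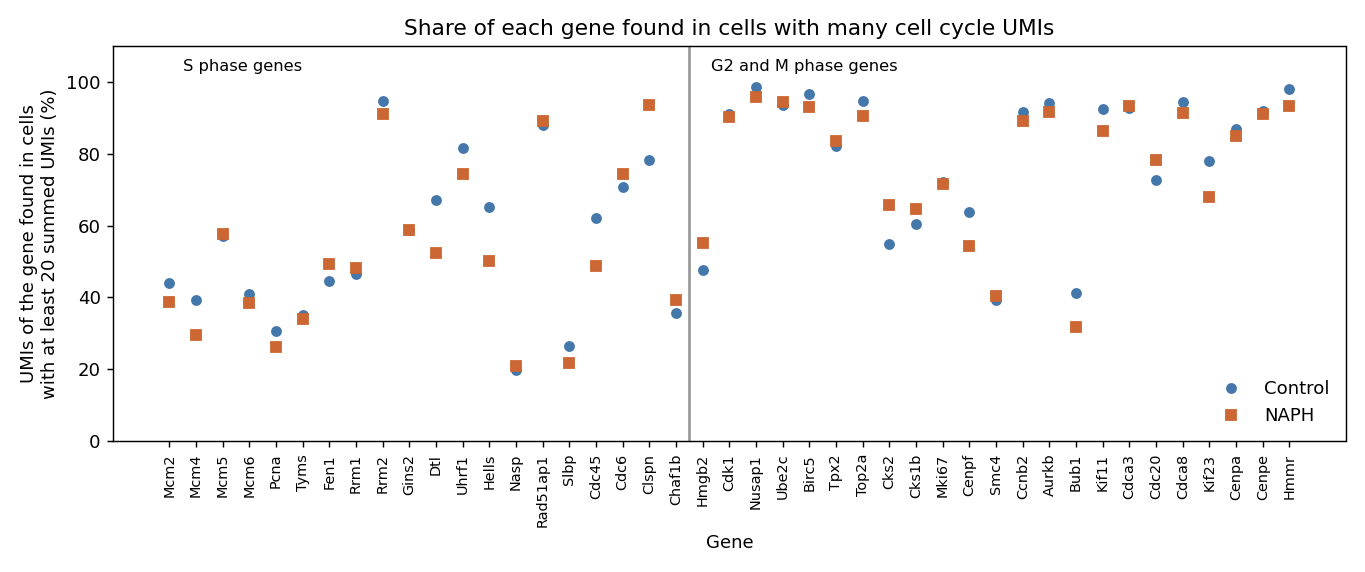
Percent of each gene's UMIs that lay in cells with at least 20 UMIs summed over the 43 genes, for Control (circles) and NAPH (squares), with S phase genes left and G2 and M phase genes right of the line. Nusap1 and Rrm2 lie above 90% in both libraries, while Nasp lies near 20%.

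Cells were divided by the levels of marker transcripts, and a cell could pass several gates. The gates were Sftpc at 500 or more per 10000 UMIs for AT2 cells, Scgb1a1 at 1000 or more for secretory cells, Scgb3a1 with Bpifb1 at 150 or more for goblet-like cells, and Foxj1, Ccdc153 and Tmem212 at 10 or more for ciliated cells. Basal cells had 3 or more UMIs of Krt5 and Krt14, and the remaining cells passed no gate. The ciliated list of 6 markers summed to 114 and 87.8 per 10000 UMIs in ciliated cells (Control and NAPH), and to 1.34 and 1.70 in AT2 cells. The AT2 list of 10 markers summed to 3300 and 3012 in AT2 cells. The remaining cells were mostly not epithelial by their RNA: 454 of 470 Control cells and 509 of 654 NAPH cells held at least 5 UMIs of 7 immune genes (Ptprc, Coro1a, Laptm5, Tyrobp, Cd52, Fcer1g, Cd53), although the sort was for Epcam+ cells. Several gates were passed by 175 Control and 87 NAPH cells, mostly secretory with goblet-like (144 and 67).

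The share of cells with at least 5 UMIs over the 43 genes was 16.3% in Control (537 of 3298 cells, interval 15.04 to 17.6%) and 21.2% in NAPH (780 of 3681, 19.9 to 22.5%). By class, the share was higher in the NAPH library in AT2, secretory, goblet-like and ciliated cells, and in the remaining cells it was 42.8% in Control and 37.2% in NAPH. Cells just inside and outside this threshold were much alike: 309 Control cells held 4 UMIs and 191 held 5, with Hmgb2 giving 32.1% and 27.9% of them, at median depths of 8724 and 10025 UMIs. In NAPH 408 cells held 4 and 242 held 5. The share with at least 5 depends on how deeply a cell was sampled. It is therefore given beside the share after each cell was thinned at random to 3500 UMIs, and beside the share with at least 20.

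In AT2 cells the share with at least 5 UMIs was 8.59% in Control (159 of 1852) and 14.9% in NAPH (386 of 2599), a ratio of 1.73 (1.45 to 2.06). Median UMIs per AT2 cell were 7727 and 9630. At equal depth the shares were 1.73% and 1.85%, a ratio of 1.07 (0.686 to 1.67), and a difference between the libraries was not detectable in this measure. With a threshold of 5 per 10000 UMIs the direction turned, with 12.7% in Control and 10.7% in NAPH, a ratio of 0.843 (0.716 to 0.992). Within cells of 6000 to 10000 UMIs the shares at own depth were 6.47% (1330 cells) and 7.75% (1213 cells), and within 10000 to 20000 UMIs they were 25.6% (246 cells) and 23.1% (1121 cells). At least 20 UMIs were held by 19 Control AT2 cells (1.03%) and 37 NAPH AT2 cells (1.42%), which gives a ratio of 1.39 (0.801 to 2.41). Within tiers of depth this share was lower in NAPH, with 0.451% (6 cells) and 0.0824% (1 cell) at 6000 to 10000 UMIs and 4.47% (11 cells) and 2.32% (26 cells) at 10000 to 20000, except above 20000, with 22.2% of 9 and 27.8% of 36 cells.

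Secretory cells showed the largest difference at equal depth among the classes in which both libraries had cells past the threshold. At least 5 UMIs were held by 166 of 801 Control cells (20.7%) and 86 of 199 NAPH cells (43.2%), which gives a ratio of 2.09 (1.69 to 2.57). Here the NAPH cells were the shallower, with a median of 22537 UMIs against 29338. After thinning the shares were 0.874% and 7.04%, a ratio of 8.05 (3.29 to 19.7). Thinning made total UMIs equal, but a list of 6 secretory markers took 6171 per 10000 UMIs in Control and 4005 in NAPH secretory cells. Fewer UMIs were thus left to other genes in Control. The median log2 ratio of all genes used was 0.59 in these cells, and its part in the shares was not tested. At least 20 UMIs were held by 6 Control cells (0.749%) and 14 NAPH cells (7.04%), which gives a ratio of 9.39 (3.66 to 24.1).

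Goblet-like cells overlap with secretory cells by their gates. At least 5 UMIs were held by 20 of 145 Control cells (13.8%) and 36 of 75 NAPH cells (48.0%), which gives a ratio of 3.48 (2.17 to 5.57). At least 20 were held by 6 of 75 NAPH cells (8%) and by 0 of 145 Control cells. The count of 0 leaves room for up to 2.07% (3 cells of 145), or 2.51% by the exact interval. Of the 6 NAPH cells, 4 also passed the secretory gate and are among the 14 NAPH secretory cells with at least 20. After thinning, 0 Control cells and 5 NAPH cells (6.67%) held at least 5. Gene by gene (ratios explained with the AT2 genes), 30 of the 43 genes reached 10 UMIs in goblet-like cells and these 30 were at least 1.5 times higher in NAPH, beside 35.3% of genes, and 0 were lower, beside 8.27%. Of the 30, 5 had 0 UMIs in Control and reached 10 through NAPH alone, so that their direction was fixed by the minimum. Basal cells were few, with at least 5 UMIs in 1 of 7 Control and 8 of 20 NAPH cells.

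In ciliated cells the share with at least 5 UMIs was 10.3% in Control (21 of 203) and 28.7% in NAPH (64 of 223), a ratio of 2.77 (1.76 to 4.37), with median depths of 5377 and 8577 UMIs. After thinning the shares were 3.45% and 5.83%, a ratio of 1.69 whose interval (0.688 to 4.15) includes 1. At least 20 UMIs were held by 4 and 13 ciliated cells.

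The remaining cells had the highest share in Control and went the other way. At least 5 UMIs were held by 201 of 470 Control cells (42.8%) and 243 of 654 NAPH cells (37.2%), which gives a ratio of 0.869 (0.752 to 1.004), at nearly equal median depths of 7903 and 7919.5 UMIs. After thinning the shares were 24.0% and 16.8%, a ratio of 0.700 (0.553 to 0.884). They held 88 of the 115 Control cells and 82 of the 149 NAPH cells with at least 20 UMIs, and of these 87 and 73 carried at least 5 UMIs of the immune genes. A list of dendritic cell genes exceeded a list of macrophage genes in 75 and 69 of those immune cells, and in 347 of 454 and 407 of 509 immune cells of the class as a whole. Among remaining cells without the immune genes, 1 of 16 in Control and 9 of 145 in NAPH held at least 20 UMIs. The makeup of the remaining cells thus differed between the libraries, and over the immune cells alone the thinned ratio was 0.796 (0.626 to 1.01).

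**Figure D3:**
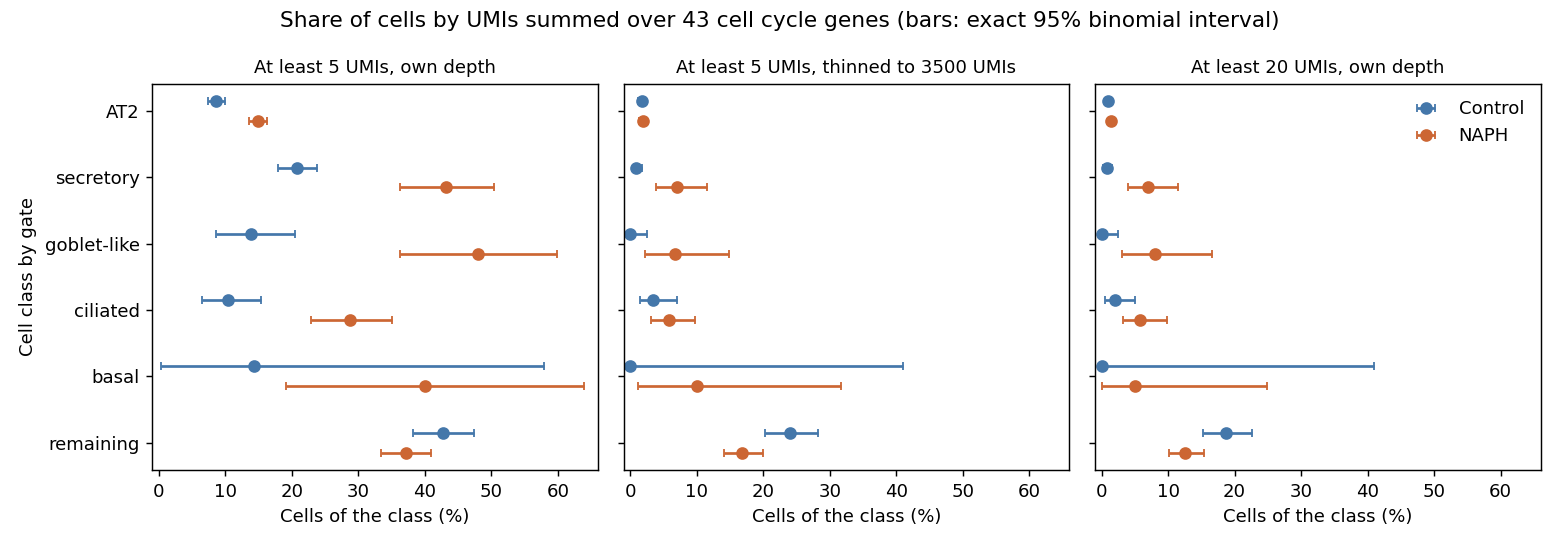
Share of cells of each class (rows) with at least 5 UMIs over the 43 genes at the cells' own depth (left), with at least 5 after thinning to 3500 UMIs (middle) and with at least 20 at own depth (right), in percent, with exact binomial intervals. In AT2 cells the libraries differ in the left panel (8.59% and 14.9%) but lie together in the middle panel (1.73% and 1.85%), while in secretory cells they differ in all panels.

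Gene by gene, levels are given as CPM, the UMIs of a gene per 1000000 UMIs of a class, a gene was used where both libraries together held at least 10 UMIs, and a ratio of 1.5 in either direction was counted. Over all cells 20 of the 43 genes were at least 1.5 times higher in NAPH and 0 were lower. This says little of the 43 genes, since 41.3% of the 15367 genes used were as much higher and 4.16% as much lower, and the median log2 ratio was 0.54 for the 43 genes and 0.51 for all genes. Relative to that median 2 of the 43 were higher, beside 12.01% of genes, and 2 lower, beside 10.2%.

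In AT2 cells 16 of the 43 genes were at least 1.5 times higher in NAPH, beside 12.1% of 13337 genes, and 5 were as much lower, beside 7.85%. By phase, 15 of the 16 higher genes were of G2 and M phase, and all 5 lower genes (Fen1, Rrm2, Dtl, Cdc6 and Clspn) of S phase. The 5 lower of 43 are not far above the share of all genes. Clspn rests on 11 and 9 UMIs, with an interval of 0.172 to 1.24. The median log2 ratio was 0.87 for the 23 genes of G2 and M phase, -0.06 for the 20 of S phase and 0.10 for all genes used.

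Cenpe and Ube2c had the highest ratios of the 43 genes in AT2 cells. Ube2c (chr2:164769898-164778822, plus strand, GRCm38 as for all positions here), the ubiquitin-conjugating enzyme of the anaphase-promoting complex, had 36 UMIs in Control and 448 in NAPH AT2 cells, or 2.41 and 17.2 CPM, a ratio of 7.13 (5.07 to 10.3). Cdc20, the activator of that complex, had 95 and 368 UMIs (6.36 and 14.1 CPM), a ratio of 2.22 (1.77 to 2.81). Both were found in few cells: Ube2c had UMIs in 17 of 1852 Control and 50 of 2599 NAPH AT2 cells. The centromere protein Cenpa, the histone H3 variant of centromeres, had 38 and 241 UMIs (2.54 and 9.25 CPM), a ratio of 3.63 (2.57 to 5.26). Cenpe, the kinetochore motor, had a ratio of 7.26 from 3 and 38 UMIs, and its interval reached from 2.30 to 36.8. Kif11 and Kif23, motors of the spindle and of its midzone, had ratios of 2.58 and 2.61. Birc5 and Cdca8, 2 subunits of the chromosomal passenger complex, had ratios of 1.86 (80 and 260 UMIs, 5.36 and 9.97 CPM) and 2.98 (20 and 104 UMIs).

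Ccnb2, a B-type cyclin, had a ratio of 2.01 (1.44 to 2.87), and its partner Cdk1 (chr10:69335146-69352938, minus strand) had 78 and 170 UMIs (5.22 and 6.52 CPM), a ratio of 1.25 (0.950 to 1.65). Of the 2 small Cdk-binding proteins, Cks2 had 145 and 461 UMIs (9.71 and 17.7 CPM), a ratio of 1.82, and Cks1b had 237 and 610 UMIs (15.9 and 23.4 CPM), a ratio of 1.47. Top2a had 95 and 180 UMIs (6.36 and 6.91 CPM), a ratio of 1.09 (0.842 to 1.41), and Smc4 had 257 and 504 UMIs (17.2 and 19.3 CPM), a ratio of 1.12. The counting intervals of Cdk1, Top2a and Smc4 include 1. Mki67 (chr7:135689784-135716361, minus strand), the proliferation antigen that coats mitotic chromosomes, had 84 and 201 UMIs (5.62 and 7.71 CPM), a ratio of 1.37 (1.06 to 1.79). Its UMIs occurred in 3.51% and 4.69% of AT2 cells and in 2.96% and 4.48% of ciliated cells at median depths of 5377 and 8577, so single Mki67 UMIs are not read here as a sign of a dividing cell. Hmgb2 went the other way, with 1753 and 2189 UMIs (117 and 84.0 CPM), a ratio of 0.716 (0.672 to 0.762).

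Most genes of S phase were close to equal or lower in AT2 cells. Slbp had 471 and 849 UMIs (31.5 and 32.6 CPM), Pcna 410 and 837 (27.5 and 32.1 CPM), and Tyms, thymidylate synthase, 247 and 418 (16.5 and 16.0 CPM). Nasp had 222 and 388 UMIs (14.9 CPM in both libraries), Mcm6 154 and 246 (10.3 and 9.44 CPM), and Rrm1, the large subunit of ribonucleotide reductase, 109 and 187 (7.30 and 7.17 CPM). These 6 genes had ratios between 0.915 (Mcm6) and 1.17 (Pcna). Rrm2 (chr12:24708241-24714146, plus strand) was lower, with 81 and 93 UMIs (5.42 and 3.57 CPM), a ratio of 0.658 (0.483 to 0.897), and Mcm5, another helicase subunit, had 80 and 98 UMIs (5.36 and 3.76 CPM), a ratio of 0.702. The lowest ratio was that of Cdc6, 0.438 from 17 and 13 UMIs.

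**Figure D4:**
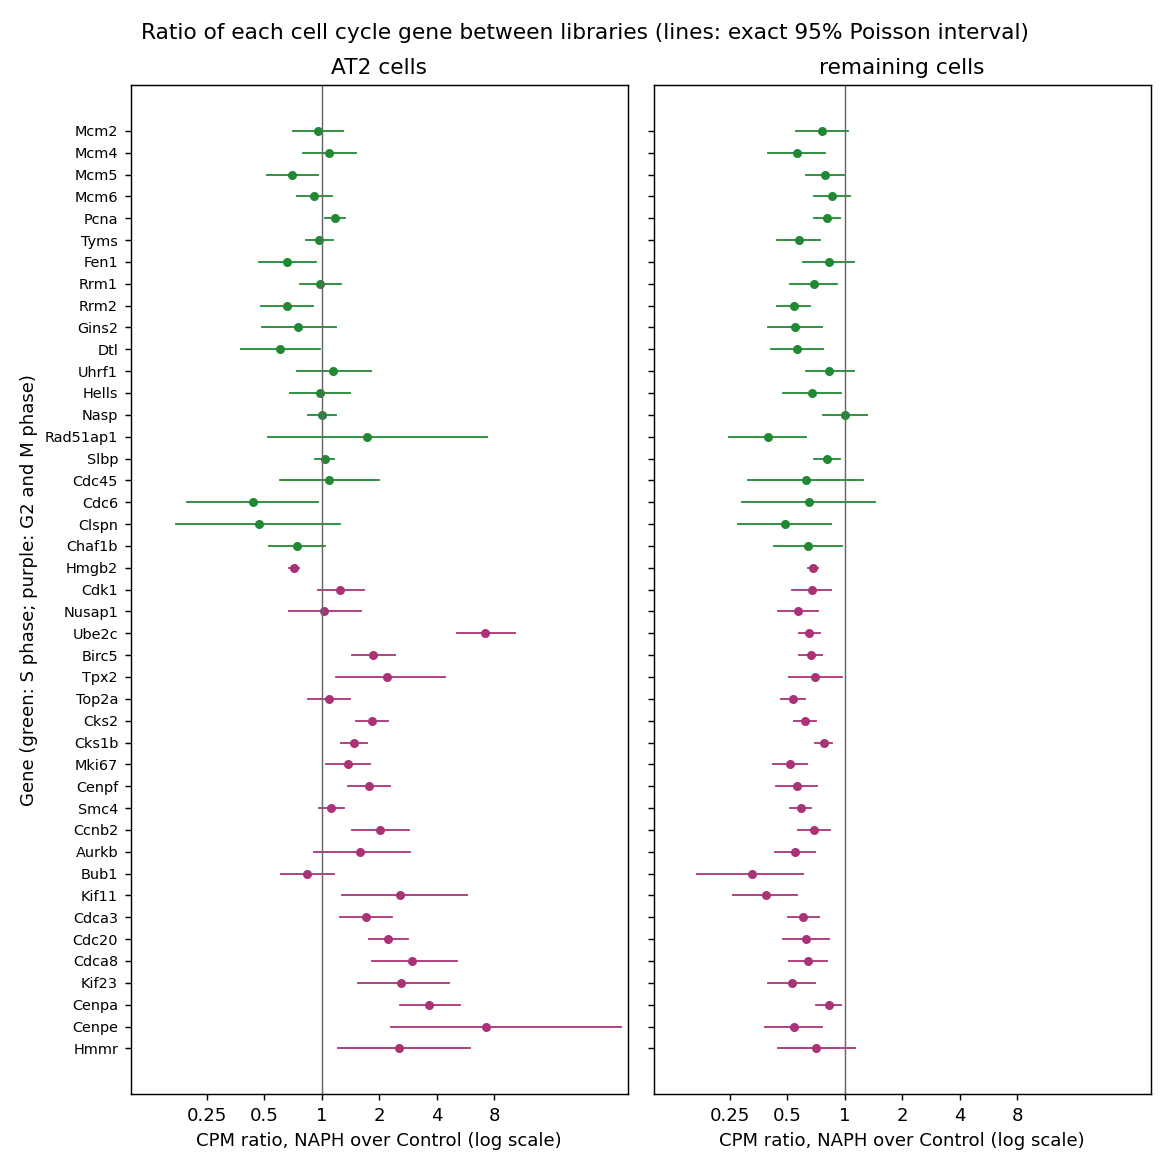
CPM ratio of NAPH over Control for each of the 43 genes (rows; S phase green, G2 and M phase purple) in AT2 cells (left) and in the remaining cells (right) on a log axis, with exact Poisson intervals for counting error. In AT2 cells Ube2c lies at 7.13 and Rrm2 at 0.658, while in the remaining cells the highest gene, Nasp, lies at 1.003.

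The AT2 cells with at least 20 UMIs differed between the libraries in the balance of the phases. The 19 Control cells held 648 UMIs of S phase genes and 1011 of G2 and M phase genes, and the 37 NAPH cells held 667 and 3473. S phase genes thus made up 39.1% of the summed UMIs in Control and 16.1% in NAPH. Cell by cell, the S phase share ran from 6.82% over a median of 42.6% to 87.9% in Control and from 1.44% over a median of 9.52% to 89.3% in NAPH, so the ranges overlap while most NAPH cells lay low. Their median depths were 11975 and 16219 UMIs. A share of at most 25% was found in 5 of 19 Control cells (26.3%, 9.15 to 51.2%) and 24 of 37 NAPH cells (64.9%, 47.5 to 79.8%). The 10 AT2 markers summed to 2207 and 1995 per 10000 UMIs in these 19 and 37 cells (3351 and 3071 in AT2 cells with under 5 UMIs), and the 7 immune genes to 1.35 and 3.99 (0.298 and 0.322). Marker lists of lymphocytes, mesenchymal and endothelial cells were at 0 in them. Without the cells that carried immune genes, 1 in Control and 5 in NAPH, the counts were 5 of 18 and 21 of 32. Shares of at least 75% were found in 3 cells of each library. The cutoff of 25% cuts a range and names no type of cell, and 2 Control cells and 1 NAPH cell lay between 20% and 30%. Cells of 1 library are not replicates, and whether this mix differs between animals or times was not tested.

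Per cell, Ube2c ran from 0 over a median of 0 to 7 UMIs in the 19 Control cells and from 0 over a median of 3 to 61 in the 37 NAPH cells. At least 5 UMIs of Ube2c were held by 3 Control and 15 NAPH cells, and the highest NAPH cell gave 14.5% of the 422 UMIs. Cenpa had at least 5 UMIs in 1 and 18 of these cells, and Cdc20 in 3 and 16. Rrm2 had at least 5 in 8 of 19 and 7 of 37, and Pcna in 8 and 7. UMIs of Ube2c, Cenpa and Cdc20 thus came from many of the NAPH cells and not from 1 alone. These genes count in the sum that chose the cells, so this is a description. The NAPH cells were also the deeper, with a median of 16219 UMIs against 11975. In CPM of these cells 19 of the 20 S phase genes were at least 1.5 times lower in NAPH and 8 of the 23 of G2 and M phase as much higher, beside 17.4% and 27.4% of 7101 genes; Nusap1 was the only G2 and M phase gene as much lower (0.657). All 43 genes passed the minimum of 10 UMIs there.

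In the AT2 cells with under 20 UMIs, 36 of the 43 genes reached 10 UMIs, 12 were at least 1.5 times higher in NAPH (beside 11.9% of genes) and 1, Hmgb2, was as much lower (beside 7.86%). By phase, 9 of 19 genes of G2 and M phase and 3 of 17 of S phase were as much higher, with median log2 ratios of 0.53 and 0.18 against 0.10 for all genes. Ube2c had 11 and 26 UMIs in these cells, a ratio of 1.37 (0.652 to 3.06). Pcna had 311 and 735 UMIs, a ratio of 1.37 (1.19 to 1.56), and Hmgb2 1521 and 1679, a ratio of 0.638 (0.595 to 0.684). Hmgb2 was thus lower in NAPH AT2 cells at both levels. It was less so in cells with at least 20 UMIs, where its ratio was 0.846 (0.723 to 0.993). Hmgb2 itself counts in the sum that set these levels.

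**Figure D5:**
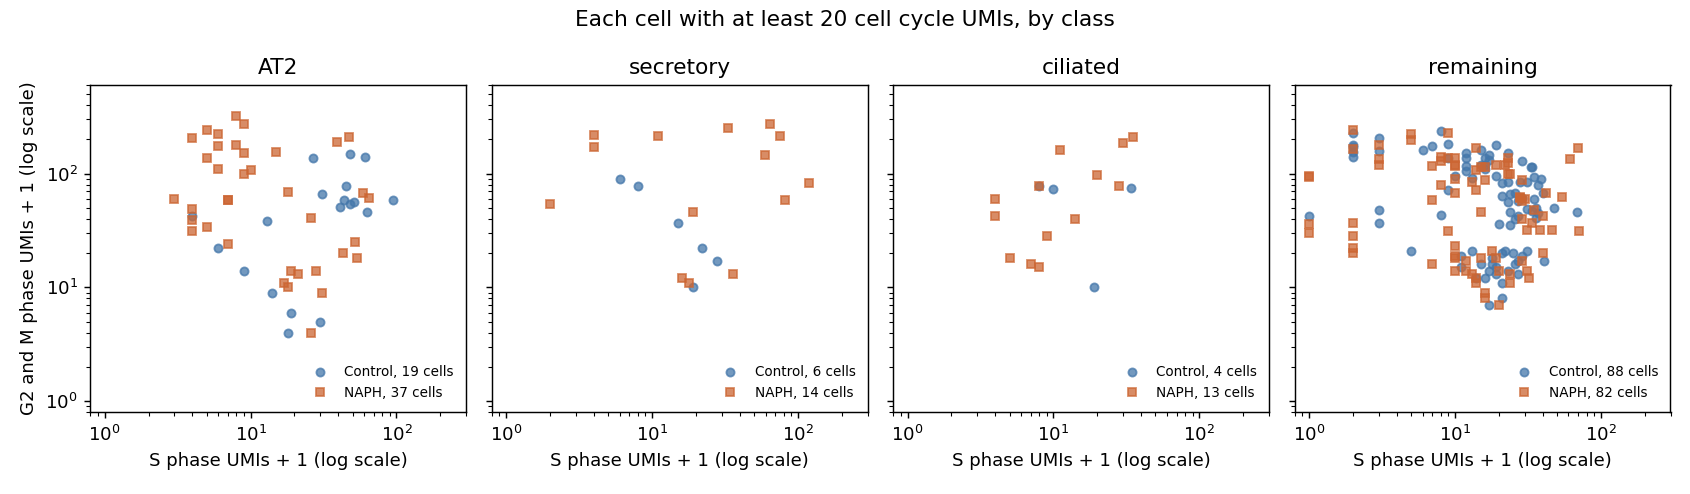
Each cell with at least 20 UMIs over the 43 genes by its S phase UMIs (horizontal) and its G2 and M phase UMIs (vertical), both plus 1 on log axes, for 4 classes. In AT2 cells 24 of 37 NAPH cells (squares) and 5 of 19 Control cells (circles) had an S phase share of at most 25%, and the remaining cells of both libraries overlap.

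Of 84 further cell cycle genes on a list of regulators, 81 were used in AT2 cells, 21 were at least 1.5 times higher in NAPH (beside 12.1% of genes) and 14 lower (beside 7.85%), and their median log2 ratio was 0.06. The 10 farthest from equal in AT2 cells or in all cells are named, of 47 genes past the ratio with at least 30 UMIs. Ccnb1, the main B-type cyclin of mitosis, had 8 and 101 UMIs in AT2 cells, a ratio of 7.23 (3.53 to 17.2), and 6 and 96 of these lay in the cells with at least 20 UMIs of the 43 genes. Aurka, a spindle pole kinase, had a ratio of 2.82 in AT2 cells. Kif20a, Anln and Ckap2, of the midzone, the cleavage furrow and the spindle, had ratios of 3.68, 3.60 and 3.85. Over all cells 34 of the 84 regulators were at least 1.5 times higher (beside 41.3% of genes) and 2 lower (beside 4.16%). Their median log2 ratio there was 0.51, as for all genes, so as a set they did not stand apart. Single ratios over all cells were 2.61 for the mitotic kinase Plk1, 2.96 for the phosphatase Cdc25c and 3.84 for the cyclin Ccna1. Of the 61 and 216 UMIs of Ccna1, 41 and 176 lay in ciliated cells with at least 20 UMIs of the 43 genes.

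Rfc4 and Ccnd2 differed in the cells with few UMIs of the 43 genes. Rfc4, a subunit of the clamp loader, had 88 and 474 UMIs in AT2 cells, a ratio of 3.09 (2.45 to 3.92). In AT2 cells with under 20 UMIs of the 43 genes its ratio was 3.73 (2.86 to 4.93), and in those with at least 20 it was 0.978 (0.601 to 1.64). Ccnd2, a D-type cyclin of G1 phase, had 703 and 455 UMIs, a ratio of 0.371 (0.329 to 0.418), with 694 and 446 of them in cells with under 20. Its relative Ccnd1, named here after its values were seen, had 1581 and 4459 UMIs, a ratio of 1.62 (1.53 to 1.71), so the 2 cyclins lay on opposite sides of 1.

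Genes outside the list of 43 that separated AT2 cells with at least 20 UMIs from those with under 5 included many known cell cycle genes. The cells were split by cell cycle UMIs, so such genes rank high by the choice of cells, and the list is a description. Ranked by the smaller of both libraries' ratios, the first 15 were Pbk, Ccna2, Cenpm, Aurka, Hist1h2ap, 2810417H13Rik, Ccnb1, Knstrn, Cdkn3, Lockd, Racgap1, Spc25, Tacc3, Nrm and Smc2, and 7 of them were on the regulator list. In the ranking an empty low group counted as 3 UMIs. Ccna2, the cyclin of S phase and G2, had 90.1 CPM in the 19 Control cells and 102 CPM in the 37 NAPH cells, against 0.375 and 0.332 CPM in AT2 cells with under 5 UMIs. The replication-dependent histone gene Hist1h2ap had 983 and 341 CPM against 1.58 and 2.37, so it was higher in the Control than in the NAPH cells, as were the S phase genes. Of 2122 genes ranked, 38 were at least 10 times higher in both libraries.

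The secretory cells differed between libraries in which genes made up their UMIs. All 40 genes that reached 10 UMIs were at least 1.5 times higher in NAPH, beside 50.2% of 12270 genes, and 0 lower, beside 5.79%, with a median log2 ratio of 3.08 against 0.59 for all genes. Kif11, with 0 UMIs in Control and 12 in NAPH, counts among the 40, and set at the bound of 3 UMIs it left the median at 3.08. Birc5 had 10 UMIs in 801 Control and 132 in 199 NAPH secretory cells, or 0.453 and 29.1 CPM, a ratio of 64.1 (33.8 to 137). Of its NAPH UMIs 129 lay in 10 cells, and the interval leaves out such clustering. Rrm2 had 4 and 53 UMIs, a ratio of 64.3 (23.7 to 245), and Ube2c 16 and 136, a ratio of 41.3. The highest ratio, 92.2, was that of Aurkb, the kinase of the chromosomal passenger complex, from 2 and 38 UMIs. The lowest ratios were those of Slbp (2.27) and Nasp (2.49). Of the 14 NAPH cells with at least 20 UMIs, 10 held UMIs of Mki67 and 10 of Birc5, with medians of 3 and 8 UMIs, and their S phase share ran from 1.37% over a median of 27.1% to 74.5%. In the 6 Control cells neither Mki67 nor Birc5 had a UMI, while Cks2 gave 80 UMIs (23.6% of their sum) and Hmgb2 63. Between these 6 and 14 cells 27 of the 37 genes used were at least 1.5 times higher in NAPH and 2, Dtl and Cks2, as much lower, beside 30.2% and 27.1% of genes. Of these 37 genes 6 had 0 UMIs in the Control cells and reached 10 through NAPH alone; with them at 3 UMIs the median log2 ratio of the G2 and M phase genes was 1.37 in place of 2.54. Secretory cells with under 20 UMIs differed too, with 27 of 29 genes higher (beside 46.6%) and 1, Mki67, lower (beside 5.74%).

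Ciliated cells with at least 20 UMIs had another makeup than AT2 cells. Of the 43 genes 32 reached 10 UMIs in ciliated cells, 21 were at least 1.5 times higher in NAPH (beside 23.6% of 11633 genes) and 0 lower (beside 6.61%). In those with at least 20 UMIs 10 of 21 genes were as much higher and 1, Pcna, lower (beside 41.5% and 10.7%). In ciliated cells with under 20 it was 8 of 19 and 1, Mki67 (beside 23.5% and 7.96%). Among the 21 higher genes of all ciliated cells, Birc5 had 0 UMIs in Control and 13 in NAPH. Among the 8, Cdk1 had 0 and 12 UMIs in the cells with under 20. Both reached 10 through NAPH alone, so that their direction was fixed by the minimum. Ciliated Cdk1 had 5 and 99 UMIs (3.59 and 43.1 CPM), the ratio being 11.99 (4.97 to 37.8). Hmgb2 and Cks2 gave 19.8% and 18.8% of the summed UMIs in the 4 Control cells and 19.3% and 21.2% in the 13 NAPH cells. Mki67, Aurkb, Birc5 and Ube2c together gave 1.01% and 3.28%, against 8.62% and 19.1% in the AT2 cells with at least 20 UMIs and 15.2% and 15.1% in the remaining cells. Cdc6 and Chaf1b, of origin licensing and of histone deposition, had no UMI in these ciliated cells. Cdk1 was present in 9 of the 13 NAPH cells, with up to 31 UMIs in a cell, and Cdc20 in 11.

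These ciliated cells carried genes of centriole amplification, the step that precedes the growth of many cilia; the genes were chosen after their values were seen. Ccno, Ccdc67 (also called Deup1) and Ccna1 together reached 5 UMIs in 3 of 4 Control and 13 of 13 NAPH cells with at least 20 UMIs of the 43 genes. Among ciliated cells with under 5 they did so in 0 of 182 and 0 of 159 cells. Ccno, known to be needed for forming many cilia, had 326 and 617 CPM in the former and 8.51 and 6.47 CPM in the latter. Mcidas, an inducer of the same program, had 10 and 28 UMIs in the former and 0 in the latter. Plk4, Foxn4, Cdc20b and Shisa8, also looked up, were higher in the former in both libraries. Myb differed less, with 201 and 224 CPM in the former and 114 and 91.5 CPM in the latter. Foxj1, a gene of the ciliated gate, was lower in the former in Control (618 against 1104 CPM) and near equal in NAPH (1279 against 1182). Ccno, Ccdc67 and Ccna1 stood near the top of a ranking by this same contrast, so the counts of cells are a description. The secretory marker Scgb3a2 stood there too, with 3903 and 6183 CPM in the former and 287 and 305 CPM in the latter. Agr2 had 209 and 467 CPM against 7.56 and 30.8. Of the 6 Control secretory cells with at least 20 UMIs, 2 are among these 4 Control ciliated cells. Ccno, Ccdc67 and Ccna1 together reached 5 UMIs in 4 of the 6 and in 1 of the 14 NAPH secretory cells. They did so in none of the AT2 or remaining cells with at least 20. Median UMIs of the 4 and 13 ciliated cells were 31235 and 24574, above those of their class. Of the 4 Control cells 2 passed several gates and 1 was among the cells with high doublet scores, and of the 13 NAPH cells 0 were in either set. At least 5 UMIs of the immune genes were held by 1 cell of each library; the part of doublets was otherwise not tested.

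In the remaining cells, mostly immune, 0 of the 43 genes were at least 1.5 times higher in NAPH and 26 were as much lower, beside 24.4% and 9.47% of 12621 genes. The median log2 ratio was -0.64 for the 43 genes and 0.11 for all genes, and 16 of the 26 were of G2 and M phase and 10 of S phase. Top2a had 444 and 343 UMIs (113 and 60.7 CPM), a ratio of 0.537 (0.465 to 0.619), Mki67 223 and 167 (56.8 and 29.6 CPM), a ratio of 0.520, and Ube2c 507 and 478 (129 and 84.6 CPM), a ratio of 0.655. In the 88 and 82 cells with at least 20 UMIs alone, 6 genes were as much lower (beside 15% of genes) and 0 higher (beside 15.8%), and Ube2c had 483 and 432 CPM. In these 88 and 82 cells S phase genes made up 20.1% and 19.6% of the summed UMIs, and 41 of 88 and 43 of 82 cells had an S phase share of at most 25%. The median log2 ratio within them was -0.28. In remaining cells with under 20 UMIs, 5 of 33 genes were higher (Ube2c, Birc5, Top2a, Cenpf and Ccnb2) and 5 lower (beside 26.8% and 9.13%). A smaller share of dividing cells in a class and less RNA in each cannot be told apart in the sums, which is why both are given.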

How the data were processed

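The deposited files hold UMI counts, not normalized, that the authors made with Cell Ranger on mm10, per the submitters' processing notes. Sources used here name no version, settings or cell calling. Barcodes with under 500 genes, under 1000 UMIs or over 20% mitochondrial UMIs were left out (0 in Control, 4 in NAPH). Gates were applied per 10000 UMIs of a cell, except the basal gate, which is in UMIs. Shares have exact binomial intervals, ratios of shares a Katz interval, and ratios of CPM an exact conditional Poisson interval (Python 3.11.15, scipy 1.17.1). Such intervals leave out variation between animals. Those of CPM ratios also treat UMIs as independent, so they are too narrow for genes whose UMIs lie in few cells. Cells were thinned with a fixed seed to 3500 UMIs. Doublets were kept: the Scrublet caller in scanpy 1.11.5 marked 8 (0.243%) and 3 cells (0.0815%) and did not work, so removing the 87 and 108 highest scores (0.8% per 1000 barcodes) was an alternative. The ratio step was run on simulated sums drawn from the Poisson distribution that its interval assumes. Clustering of UMIs in few cells was not simulated, so only the computation was tested. Nothing was averaged over replicates, since each group has 1 library.

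Values are given in full for the 8 genes of each phase with the most UMIs and for Mki67, Top2a, Cdk1 and Pcna, and others by range or as the highest and lowest. Regulators are the 10 farthest from a ratio of 1 with at least 30 UMIs, an order set after the values were seen, and other genes are the first 15 of the ranking described. The 43 genes, gates and lists were chosen with earlier results of these data known.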

Additional observations from a re-analysis of the deposited data

How the results depend on the processing

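Of 118 alternative values, 81 stayed within the limits set for the same value, 36 moved and 1, whose interval had lain above 1, changed direction. In basal cells (7 and 20), where the interval of the ratio of 2.80 included 1, it was 0.613 with at least 5 per 10000 UMIs. The share with at least 5 UMIs is the measure that moved most. With 3 UMIs as the threshold the ratio of NAPH over Control was 1.14 for all cells, 1.28 in AT2, 1.32 in secretory, 1.74 in goblet-like and 1.66 in ciliated cells. With 10 UMIs it was 8.05 in secretory and 10.3 in goblet-like cells, and with 20 it was 1.16 for all cells, 1.39 in AT2, 9.39 in secretory and 0.670 in remaining cells. With at least 5 per 10000 UMIs it was 1.11 for all cells, 8.86 in secretory, 19.3 in goblet-like and 1.22 in ciliated cells, and it reversed in AT2 cells, to 0.843. Thinned to 3500 UMIs it was 1.06 for all cells, 1.07 in AT2, 8.05 in secretory, 1.69 in ciliated and 0.700 in remaining cells. Without Hmgb2, Nasp, Slbp, Smc4, Cks1b, Cks2 and Pcna it was 10.1 in secretory, 29.0 in goblet-like, 4.55 in ciliated and 0.732 in remaining cells. The goblet-like ratios of 19.3 (2.52 to 148) and 29.0 (3.91 to 215) each rest on 1 of 145 Control cells. Thresholds that left 0 Control cells past them gave no ratio in goblet-like and basal cells.

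Of the 43 genes over all cells, the 20 higher became 2 relative to the median of all genes (beside 12.01% of genes), 4 without Sftpc, Scgb1a1, Scgb3a1, Bpifb1 and Scgb3a2 in the total (12.9%) and 2 after thinning (17.3%). The 0 lower became 2 (10.2%), 1 (9.42%) and 3 (5.84%), and 1 in cells with under 20 UMIs (4.14%). In AT2 cells the 16 higher ranged from 12 to 16 (9.79 to 20.03%), and the 5 lower became 2 after thinning (7.66%) and 1 in cells with under 20 (7.86%). In remaining cells with under 20 there were 5 higher (26.8%) and 5 lower (9.13%). The share of NAPH AT2 cells with few S phase UMIs was 81.5% after thinning with at least 10 UMIs in place of 20, and 50% with at least 10 alone; these checks were chosen after seeing the data. For the values that moved the cause was not tested. No paired analysis was possible because each group has 1 library, and for the same reason no library could be left out. At the depth of these cells a gene with under 10 UMIs in a class allows no ratio, and the goblet-like, basal and ciliated classes rest on few cells past 20 UMIs.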

Other observations

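The AT2 cells with at least 20 UMIs of the 43 genes kept the transcripts of their class, at lower CPM. Their median depths were 11975 and 16219 UMIs, against 7648 and 9307 in AT2 cells with under 5. Lower CPM therefore need not mean fewer transcripts per cell. The genes in this paragraph were chosen after their values were seen. Sftpc, surfactant protein C and the gene of the gate, had 162075 CPM in the 19 Control cells and 129957 CPM in the 37 NAPH cells, against 237878 and 208708 CPM in AT2 cells with under 5 UMIs. Lyz2, a lysozyme gene of AT2 cells and macrophages, had 17445 and 20331 CPM against 35815 and 30881. Lamp3, of the lamellar body, had 897 and 1116 CPM against 1109 and 1259. Krt8, a keratin of simple epithelia, was higher in them, with 422 and 596 CPM against 155 and 260, and Epcam had 389 and 422 CPM against 184 and 160. Lrg1, a secreted glycoprotein of the acute phase, differed between the libraries at both levels, with 102 CPM in Control and 1015 CPM in NAPH cells with at least 20 UMIs and 184 and 2216 CPM in cells with under 5. Cdkn1a, the p21 inhibitor of the cycle, had 262 CPM in the Control and 66.2 CPM in the NAPH cells with at least 20 UMIs, against 40.02 and 63.0 CPM in cells with under 5.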
